A study of Mus musculus with 21 samples.

Results

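The secreted Wnt antagonists and the feedback genes of the Wnt pathway were followed in mouse forelimb buds (FBs). The 10 genes were *Dkk1*, *Dkk2*, *Dkk3*, *Sfrp1*, *Sfrp2*, *Frzb*, *Wif1*, *Axin2*, *Lef1* and *Rspo3*, chosen by name with earlier results of these data known. Each was read from the transcript cluster (the set of probes of 1 gene on the array) that carried this gene alone and had the highest mean. Of these 10 genes 9 were measured, among 14860 genes tested in all. *Dkk1* lay only on a cluster shared with other genes, and its level is not analysed here. Total RNA of FBs of Swiss mouse embryos was read on Affymetrix Mouse Exon arrays with a single sample on each, and 3 arrays labelled as biological replicates made up each of 7 groups. The groups were E10.5 FBs taken before culture (0 h, called fresh here) or after 1, 3 or 6 h of culture of the whole embryo in rotating bottles, and E12.5 FBs at 0, 1 or 3 h of culture. No embryo carried a mutation or received an agent, and the labels do not say whether the limbs of several embryos were pooled. All levels below are log2 values as deposited, so that a difference of 1 is a doubling, and they were made with RMA, which sets the values of 1 gene on a common scale across arrays but does not allow the levels of different genes to be compared.

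Wnt proteins bind Frizzled receptors together with the co-receptors Lrp5 and Lrp6, and in the canonical branch of the pathway this keeps beta-catenin from being degraded, so that it can switch on genes together with Tcf and Lef factors. The pathway is restrained outside the cell by antagonists, of which Dickkopf proteins act on the co-receptors, whereas secreted Frizzled-related proteins and Wif1 bind the Wnt ligands themselves. R-spondins act in the other direction by keeping the receptors at the cell surface. In the limb bud, Wnt signals from the ectoderm and the apical ridge sustain outgrowth and hold back cartilage formation in the mesenchyme beneath them.

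Marker lists were read first, to describe the samples. The mean of 10 forelimb mesenchyme markers, among them *Prrx1* and *Tbx5*, lay between 9.81 and 10.37 in all 21 arrays. No sample of another tissue was at hand for comparison, so this range does not by itself establish limb identity. The median of an array ran from 6.00 to 6.603, and the 2 lowest belonged to E10.5 at 3 h (replicate 2) and at 6 h (replicate 3). RNA of other tissues was not spread evenly. Placenta and decidua markers (10 genes) averaged 4.66 to 6.80 in E10.5 FBs at 0 h and 4.69 to 6.47 at 6 h, but 3.72 to 3.95 in all E10.5 arrays at 1 and 3 h, and neuronal markers (16 genes) reached 9.37 in 1 array of E10.5 at 1 h, replicate 1. In whole limb buds, fewer cells of a type and less RNA per cell cannot be told apart.

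To see which of the 9 genes departed from the level of freshly dissected FBs in culture, each time point was compared with 0 h of its stage by limma over all 21 arrays, and a gene was called at a Benjamini-Hochberg adjusted p under 0.05 over all genes. All cultured groups of a stage share their 3 arrays of 0 h. At E10.5, *Dkk2* and *Sfrp1* were higher at each time point, and *Frzb* and *Wif1* were lower at 6 h. After 1 h, 2 of 9 genes were called, both higher, where 3.91% of all genes tested were called, 2.79% higher and 1.12% lower. After 3 h, 2 were again called, both higher, against 4.68% of all genes called, 3.23% higher and 1.45% lower. After 6 h, 4 were called, 2 in each direction, against 6.76% of all genes, 3.89% higher and 2.87% lower. Between 3 and 6 h, 1 gene was higher and 3 were lower, so that 4 were called against 2.27% of all genes, 0.659% higher and 1.62% lower. The arrays of the compared groups did not overlap for 3, 4, 5 and 5 of the 9 genes in these 4 comparisons, where the share over all genes was 25.2%, 21.1%, 21.5% and 14%.

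At E12.5, *Sfrp1* alone was called after 1 h of culture (1 of 9, higher, against 2.11% of all genes, 1.29% higher and 0.828% lower). After 3 h, 6 of the 9 were called, with *Sfrp1*, *Axin2* and *Lef1* higher and *Frzb*, *Wif1* and *Rspo3* lower, in a comparison in which 27.5% of all genes were called, 9.94% higher and 17.6% lower. The arrays did not overlap for 5 and 6 of the 9 genes, against 26.9% and 48.7% of all genes. The median change of the 9 genes was 0.12, 0.28 and -0.18 at 1, 3 and 6 h of E10.5 culture and -0.08 and 0.13 at 1 and 3 h of E12.5 culture, beside medians over all genes between -0.04 and 0.01. Among all genes called at 1 h of E10.5 culture 71.3% were higher, and 55.7% with a common array median. For E12.5 the share went from 60.8% to 77% at 1 h, and from 36.1% to 49.5% after 3 h.

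**Figure D1:**
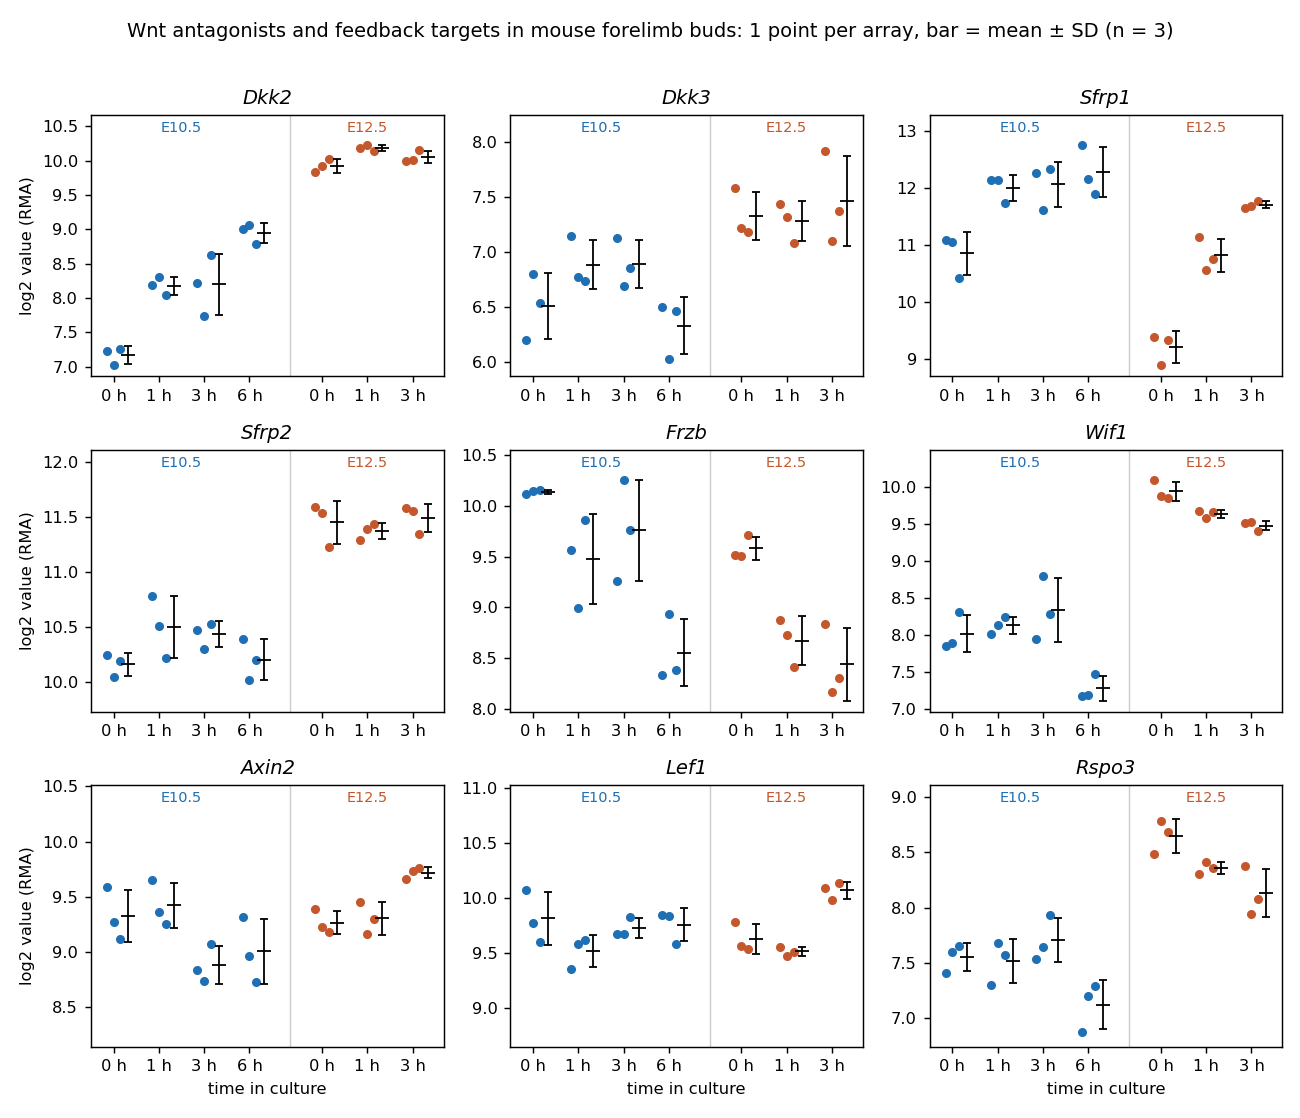
Log2 value (RMA, vertical axis) of each of the 9 measured genes on every array against hours in culture (horizontal axis), with E10.5 in blue on the left and E12.5 in orange on the right of each panel. Points are single arrays and bars are the mean ± SD of 3 arrays. *Dkk2* rose from 7.17 to 8.95 in E10.5 culture and stayed between 9.83 and 10.23 in all E12.5 arrays, and each panel has its own axis range.

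*Dkk2* encodes a Dickkopf protein that binds the Lrp5 and Lrp6 co-receptors (gene ID 56811). It was the 1 gene of the set that the study had itself picked on these arrays, so its direction here is not independent evidence. In freshly dissected E10.5 FBs its log2 value was 7.23, 7.02 and 7.25. It was 8.19, 8.31 and 8.04 after 1 h, and 8.22, 7.74 and 8.62 after 3 h. After 6 h it was 9.002, 9.06 and 8.78. Every cultured E10.5 array lay above every fresh one, the arrays at 1 and 3 h overlapped each other, and the arrays at 6 h lay above all of them. The change from 0 h was 1.01 ± 0.16 (SE, n = 3) at 1 h, 1.03 at 3 h and 1.78 at 6 h, with adjusted p of 0.0014, 0.000921 and 1.34e-06 in limma, and the further 0.75 from 3 to 6 h also passed (adjusted p = 0.0155).

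The level of *Dkk2* at E12.5 was 9.83, 9.91 and 10.02 in fresh FBs, 10.18, 10.23 and 10.14 after 1 h, and 9.998, 10.004 and 10.15 after 3 h. All of these lay above the highest E10.5 array. Fresh E12.5 FBs exceeded fresh E10.5 FBs by 2.75 ± 0.16, which is 6.73-fold (adjusted p = 1.63e-09). Within E12.5 culture the changes of 0.26 at 1 h (adjusted p = 0.529) and 0.13 at 3 h (adjusted p = 0.602) did not pass the test. From high to low, the order was E12.5 at 1, 3 and 0 h and then E10.5 at 6, 3, 1 and 0 h, and neighbors in this order overlapped within E12.5 and between E10.5 at 3 and 1 h. The E10.5 calls at 1 and 3 h were lost with the placenta and decidua mean as a covariate (0.96, adjusted p = 0.0991, and 0.98, adjusted p = 0.0687), and the call at 6 h passed under every alternative tried. The call from 3 to 6 h was lost without E10.5 6 h replicate 2 (0.70, adjusted p = 0.0699) and with the same covariate (0.79, adjusted p = 0.11). In limma with only the groups of the comparison, the calls at 3 h (adjusted p = 0.142) and from 3 to 6 h (adjusted p = 0.505) were lost. The per-gene test of the methods ended the calls at 1 h, at 3 h and from 3 to 6 h (adjusted p of 0.13, 0.33 and 0.674). Coelomic mesothelium markers (13 measured, of which 9 are in the study's own lists) moved with *Dkk2* and *Sfrp1* in E10.5 culture. Their mean was 6.85 to 7.15 before culture, 8.12 to 8.29 after 1 h and 8.26 to 8.94 after 6 h, with 8 of 13 called higher and 1 lower at 1 h, and their part in the result was not tested.

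The promoter of *Dkk2* is shown because this gene had the largest stage difference among the 9 and its window holds a match to a Tcf/Lef motif. Windows of 250 bases before to 50 bases after the start of a gene were taken from RefSeq (GRCm38.p6), in which *Dkk3*, *Sfrp1* and *Rspo3* were not listed. They were searched on both strands for CTTTGAA, for a variant ending in T (CTTTGAT) and for the shorter CTTTGT, forms of the core of the sequence that Tcf and Lef proteins bind, of which no pair can match at the same place. Of 32851 windows of this length, 5.1%, 3.7% and 18.7% hold these motifs and 25.4% hold any of them. In capitals is CTTTGT at bases 171 to 176 of the window, with its first base at -80 from the start. The window lies at chr3:132085042-132085341 on the plus strand and reads 5′ to 3′ as follows.
Dkk2: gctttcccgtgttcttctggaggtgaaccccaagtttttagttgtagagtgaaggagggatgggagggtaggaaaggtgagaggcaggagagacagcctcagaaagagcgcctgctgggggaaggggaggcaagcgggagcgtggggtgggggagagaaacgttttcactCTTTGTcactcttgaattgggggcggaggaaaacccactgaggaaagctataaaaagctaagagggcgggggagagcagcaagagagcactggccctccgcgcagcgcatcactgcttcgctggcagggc
The match is a description of the sequence and not evidence of a bound site.

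*Dkk3*, a divergent member of the Dickkopf family whose effect on Wnt signaling is less settled (gene ID 50781), gave no called change in culture as deposited. At E10.5 its log2 value was 6.20, 6.80 and 6.54 before culture, 7.15, 6.77 and 6.74 after 1 h, 7.12, 6.69 and 6.86 after 3 h, and 6.50, 6.03 and 6.47 after 6 h. At E12.5 it was 7.58, 7.22 and 7.19 before culture, 7.44, 7.32 and 7.08 after 1 h, and 7.91, 7.10 and 7.38 after 3 h. Groups next to each other in the order of means overlapped in every case, with the E12.5 groups at the top and E10.5 at 6 h at the bottom. The difference between the stages was called at 0 h (0.82 ± 0.21, adjusted p = 0.00695), where the arrays did not overlap. With array weights a difference of -0.76 between 3 and 6 h of E10.5 culture was called (adjusted p = 0.0143), as was the stage difference at 1 h (0.49, adjusted p = 0.0315). The stage difference of 0.57 at 3 h passed (adjusted p = 0.0472) but was lost under all 3 other scalings (0.33 to 0.35, adjusted p of 0.158 to 0.228) and without any of 4 arrays (E10.5 3 h replicates 2 and 3, E12.5 3 h replicates 1 and 3), down to 0.35 without E12.5 3 h replicate 1.

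*Sfrp1* encodes a secreted Frizzled-related protein that binds Wnt ligands (gene ID 20377) and was called higher in culture at both stages. In E10.5 FBs its log2 value was 11.10, 11.06 and 10.43 before culture. It was 12.15, 12.14 and 11.74 after 1 h, and 12.27, 11.62 and 12.34 after 3 h. At 6 h it was 12.76, 12.18 and 11.91. All 9 cultured arrays of E10.5 lay above the 3 fresh arrays, among which replicate 3 was the lowest, and the 3 culture times overlapped each other. The changes were 1.14 ± 0.24 (SE, n = 3, adjusted p = 0.0132), 1.21 (adjusted p = 0.00832) and 1.42 (adjusted p = 0.00118).

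In E12.5 FBs *Sfrp1* started lower, at 9.40, 8.90 and 9.35, and was 11.14, 10.57 and 10.77 after 1 h and 11.66, 11.70 and 11.79 after 3 h. The 3 times were separated on every array, with 0 h lowest and 3 h highest. The change reached 1.61 ± 0.24 at 1 h (adjusted p = 0.00167) and 2.50 at 3 h, which is 5.66-fold (adjusted p = 7.42e-06). Fresh E12.5 FBs lay 1.65 below fresh E10.5 FBs (adjusted p = 6.96e-05), the gap was still 1.18 at 1 h (adjusted p = 0.00222), and at 3 h it was 0.36 with overlapping arrays. That last gap, -0.36 in the direction E12.5 minus E10.5 (adjusted p = 0.286), became a call with a common array median (-0.58, adjusted p = 0.0407) and with array weights (-0.56, adjusted p = 0.0299). The order of means ran from E10.5 at 6, 3 and 1 h and E12.5 at 3 h, each of which overlapped the next, over E10.5 at 0 h and E12.5 at 1 h, which overlapped each other, down to E12.5 at 0 h below all other arrays.

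The E10.5 calls of *Sfrp1* at 1 and 3 h depended on single arrays. At 1 h the call was lost without E10.5 0 h replicate 3 (0.93, adjusted p = 0.0814) or without E10.5 1 h replicate 1 or 2 (1.08 in both cases, adjusted p of 0.0632 and 0.0502), and at 3 h without E10.5 0 h replicate 3 (0.99, adjusted p = 0.0534). With the placenta and decidua mean as a covariate the changes were 0.77 (adjusted p = 0.4) and 0.86 (adjusted p = 0.294). The E10.5 calls at 1, 3 and 6 h were all lost in limma with only the groups of the comparison (adjusted p of 0.0807, 0.137 and 0.0554). All of them were also lost in the per-gene test of the methods (adjusted p of 0.24, 0.33 and 0.239). Proximal limb and flank markers, with those of the shoulder girdle (17 measured), moved with *Sfrp1* in E12.5 culture. Their mean was 7.57 to 7.83 in fresh E12.5 FBs, 8.31 to 8.56 after 1 h and 8.58 to 8.79 after 3 h of culture, and 8.30 to 8.73 in fresh E10.5 FBs. At 3 h of E12.5 culture 11 of these 17 markers rose and 0 fell, and 10 were lower and 1 was higher in fresh E12.5 than in fresh E10.5 FBs. *Hoxc5*, a marker of this list chosen here after its values were seen, rose by 3.14 at 3 h of E12.5 culture. In E10.5 culture the mean of the list was 8.697 to 9.07 after 1 h and 8.51 to 9.01 after 3 h, which overlapped the fresh arrays, with 3 and 2 of the 17 markers called higher and 0 lower. After 6 h of E10.5 culture it was 8.76 to 8.87, above all fresh E10.5 arrays, with 6 of the 17 called higher and 2 lower. The part of these markers in the level of *Sfrp1* was not tested.

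*Sfrp2* (gene ID 20319) encodes another secreted Frizzled-related protein and was called between the stages but at no time in culture. Its log2 value was 10.24, 10.04 and 10.19 before culture, 10.78, 10.504 and 10.22 after 1 h, 10.48, 10.30 and 10.53 after 3 h, and 10.39, 10.02 and 10.20 after 6 h of E10.5 culture. At E12.5 it was 11.59, 11.54 and 11.22 before culture, 11.29, 11.39 and 11.43 after 1 h, and 11.58, 11.55 and 11.34 after 3 h. The 9 arrays of E12.5 lay above the 12 arrays of E10.5, whereas the times within a stage overlapped their neighbors in the order of means. The stage difference was 1.29 ± 0.14 at 0 h (adjusted p = 2.44e-06), 0.87 at 1 h (adjusted p = 0.000229) and 1.05 at 3 h (adjusted p = 3.43e-05), and these 3 calls held under every alternative tried. No change in culture was larger than 0.34 at either stage, and with array weights a rise by 0.37 at 3 h of E10.5 culture (adjusted p = 0.0314) and a difference of -0.42 between 3 and 6 h (adjusted p = 0.0485) were called.

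*Frzb* encodes a secreted Frizzled-related protein known from developing cartilage (gene ID 20378), and its level was called lower at 6 h of E10.5 and at 3 h of E12.5 culture. Fresh E10.5 FBs gave 10.12, 10.15 and 10.15. Its log2 value was 9.56, 8.998 and 9.86 after 1 h and 9.26, 10.25 and 9.76 after 3 h, which are widely spread groups, of which the arrays after 1 h lay below all fresh ones. At 6 h it was 8.34, 8.94 and 8.39, below every earlier E10.5 array. The fall by 1.59 ± 0.25 from 0 to 6 h was a 3.00-fold difference (adjusted p = 0.000497), and the changes of -0.66 at 1 h (adjusted p = 0.162, and 0.0484 with array weights) and -0.38 at 3 h (adjusted p = 0.413) did not pass. From 3 to 6 h it fell by 1.20 (adjusted p = 0.0147), a call that was lost without E10.5 3 h replicate 2 (-0.96, adjusted p = 0.0518) or E10.5 6 h replicate 3 (-1.12, adjusted p = 0.0681). This call was also lost with the placenta and decidua mean as a covariate (-1.44, adjusted p = 0.0574).

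At E12.5 the log2 value of *Frzb* was 9.52, 9.504 and 9.71 before culture, 8.87, 8.73 and 8.41 after 1 h, and 8.84, 8.17 and 8.30 after 3 h. Both cultured groups lay below the fresh arrays and overlapped each other. The difference from 0 h was -0.91 ± 0.25 at 1 h (adjusted p = 0.0708), which passed under 6 alternatives, in 5 of them with adjusted p of 0.00884 to 0.0487, and -1.14 at 3 h (adjusted p = 0.00252). E12.5 was below E10.5 by 0.80 at 1 h and by 1.32 at 3 h (adjusted p of 0.0312 and 0.000811). The stage difference of -0.56 at 0 h missed the threshold (adjusted p = 0.109) although the arrays did not overlap, and it passed under 6 of 15 alternatives (-0.81 to -0.55, adjusted p of 0.00508 to 0.0453), which were the 3 other scalings, array weights, the test with only the groups of the comparison and the per-gene test of the methods. The stage call at 1 h was lost without E10.5 1 h replicate 1 (-0.76) or 3 (-0.61) and without E12.5 1 h replicate 2 (-0.83) or 3 (-0.67), with adjusted p from 0.0636 to 0.153. In the order of means, only the step from E10.5 at 1 h down to E12.5 at 1 h separated neighboring groups on every array.

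Markers of distal limb mesenchyme (13 measured, 4 of them in the study's own lists) and of the limb ectoderm and apical ridge (18 measured, 1 of them in those lists) moved with the fall of *Frzb* and *Wif1* at 6 h of E10.5 culture. The first list averaged 9.24 to 9.27 before culture, 8.75 to 8.84 after 3 h and 7.45 to 7.91 after 6 h, and 10 of its 13 genes were called lower at 6 h than at 0 h. The second list averaged 8.68 to 8.78 at 0 h and 7.61 to 8.26 at 6 h, with 11 of 18 called lower. No gene of either list was called higher at 6 h. The part of these cells in the levels of *Frzb* and *Wif1* was not tested.

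*Wif1*, Wnt inhibitory factor 1, binds Wnt ligands through its WIF domain (gene ID 24117). Its log2 value in E10.5 FBs was 7.85, 7.89 and 8.30 before culture, 8.01, 8.13 and 8.24 after 1 h, and 7.94, 8.79 and 8.28 after 3 h. At 6 h it was 7.17, 7.19 and 7.47. The first 3 groups overlapped and the 6 h arrays lay below all of them. The fall by 0.74 ± 0.17 from 0 h (adjusted p = 0.0113) and by 1.06 from 3 h (adjusted p = 0.00211) passed the test, and the former was lost with a common array median (-0.66, adjusted p = 0.111), with quantile normalization (-0.66, adjusted p = 0.0533) and without E10.5 0 h replicate 3 (-0.59, adjusted p = 0.0719).

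In E12.5 FBs *Wif1* was higher, at 10.09, 9.88 and 9.85 before culture, 9.67, 9.57 and 9.66 after 1 h, and 9.51, 9.52 and 9.40 after 3 h. Each later time lay below the earlier one on every array, and all 9 arrays were above those of E10.5. The stage difference was 1.93 ± 0.17 in fresh FBs, which is 3.80-fold (adjusted p = 2.45e-07), 1.51 at 1 h (adjusted p = 6.33e-06) and 1.14 at 3 h (adjusted p = 9.56e-05). The difference of -0.46 between 3 h and 0 h only just passed (adjusted p = 0.0484) and was lost without any 1 of its 6 arrays (-0.51 to -0.39, adjusted p of 0.0696 to 0.164) and under each of the 3 other scalings (-0.42 to -0.36, adjusted p of 0.161 to 0.223). Cartilage markers (16 measured) were higher with E12.5 too, at 7.64 to 8.20 in fresh E12.5 and 6.62 to 6.73 in fresh E10.5 FBs, with 11 called higher and 1 lower, and their part in the stage differences of *Wif1*, *Sfrp2* and *Dkk2* was not tested.

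*Axin2*, a scaffold of the complex that degrades beta-catenin and a widely used readout of canonical Wnt signaling (gene ID 12006), was called higher at 3 h of E12.5 culture. Its log2 value in E10.5 FBs was 9.59, 9.27 and 9.12 before culture, 9.65, 9.36 and 9.25 after 1 h, 8.84, 8.73 and 9.07 after 3 h, and 9.32, 8.96 and 8.73 after 6 h. In E12.5 FBs it was 9.39, 9.23 and 9.18 before culture, 9.45, 9.16 and 9.30 after 1 h, and 9.66, 9.73 and 9.76 after 3 h. The 3 arrays of E12.5 at 3 h lay above all other arrays of the series, and the 3 arrays of E10.5 at 3 h lay below their fresh controls. The change at 3 h was 0.45 ± 0.15 in E12.5 (adjusted p = 0.0342) and -0.44 in E10.5 (adjusted p = 0.108, unadjusted p = 0.00964).

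The 2 stages then stood apart at 3 h by 0.84 ± 0.15 for *Axin2*, which is 1.79-fold (adjusted p = 0.000613), after differences of -0.06 at 0 h and -0.12 at 1 h (adjusted p of 0.818 and 0.669). This stage difference at 3 h held under every alternative tried. The E12.5 call of *Axin2* at 3 h was lost without any 1 of E12.5 0 h replicates 2 and 3 and E12.5 3 h replicates 1, 2 and 3 (0.41 to 0.48, adjusted p of 0.0597 to 0.104) and over all features of the array (adjusted p = 0.0544). At 6 h of E10.5 culture the change was -0.32 (adjusted p = 0.237), and it passed without E10.5 6 h replicate 1 (-0.48, adjusted p = 0.0494).

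*Lef1* encodes a transcription factor that binds DNA together with beta-catenin and is itself a target of the pathway (gene ID 16842). It varied least of the 9 genes, with group means within 0.55 of each other. Its log2 value in E10.5 FBs was 10.07, 9.77 and 9.60 before culture, 9.35, 9.58 and 9.61 after 1 h, 9.67, 9.67 and 9.83 after 3 h, and 9.85, 9.83 and 9.58 after 6 h. In E12.5 FBs it was 9.78, 9.56 and 9.53 before culture, 9.56, 9.47 and 9.51 after 1 h, and 10.09, 9.98 and 10.13 after 3 h. The E12.5 arrays at 3 h lay above the other E12.5 arrays, but overlapped the fresh E10.5 arrays, and every pair of neighbors in the order of means overlapped.

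The change of *Lef1* at 3 h of E12.5 culture was 0.45 ± 0.12 (adjusted p = 0.00969). It passed without any 1 array (adjusted p of 0.00968 to 0.0435) and under every other alternative except a required fold of at least 1.5. At E10.5 no change passed, with -0.30 at 1 h (adjusted p = 0.188), -0.09 at 3 h and -0.06 at 6 h. The stages differed by 0.35 at 3 h (adjusted p = 0.0374), a call that was lost with a common array median (0.13, adjusted p = 0.524) and without E10.5 3 h replicate 1 or 2 or E12.5 3 h replicate 1 or 3 (0.31 to 0.34, adjusted p of 0.0906 to 0.11). In fresh FBs the stage difference was -0.19 (adjusted p = 0.257), and it was called with a common array median (-0.44, adjusted p = 0.0249).

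The promoters of *Axin2* and *Lef1* are shown because both genes were called higher at 3 h of E12.5 culture. The *Axin2* window at chr11:108920099-108920398 (plus strand) and *Lef1* window 1 at chr3:131110047-131110346 (plus strand) hold none of the 3 motifs given for *Dkk2*, and *Lef1* window 4, at chr3:131156044-131156343 (plus strand), holds CTTTGT on its minus strand. This match is in capitals below as it reads on the plus strand, at bases 105 to 110 of the window, and the first of these capitals lies at -146 from that start.
Axin2: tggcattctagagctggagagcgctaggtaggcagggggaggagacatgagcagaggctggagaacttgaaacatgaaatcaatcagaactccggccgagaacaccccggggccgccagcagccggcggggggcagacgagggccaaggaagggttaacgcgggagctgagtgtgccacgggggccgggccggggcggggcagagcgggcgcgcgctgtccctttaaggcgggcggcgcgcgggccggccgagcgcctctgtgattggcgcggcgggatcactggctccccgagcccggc
Lef1, window 1: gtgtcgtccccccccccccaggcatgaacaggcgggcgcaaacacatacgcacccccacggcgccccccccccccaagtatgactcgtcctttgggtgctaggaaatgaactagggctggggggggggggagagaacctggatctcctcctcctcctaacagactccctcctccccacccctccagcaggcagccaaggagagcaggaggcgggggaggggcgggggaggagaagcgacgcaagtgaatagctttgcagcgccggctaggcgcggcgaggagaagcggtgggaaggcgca
Lef1, window 4: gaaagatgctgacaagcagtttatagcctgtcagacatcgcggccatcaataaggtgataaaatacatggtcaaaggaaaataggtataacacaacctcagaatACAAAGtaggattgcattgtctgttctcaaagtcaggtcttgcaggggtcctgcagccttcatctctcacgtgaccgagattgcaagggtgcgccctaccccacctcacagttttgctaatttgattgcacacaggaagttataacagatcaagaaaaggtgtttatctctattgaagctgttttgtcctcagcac
The absence of these letters from a window of 300 bases says nothing about motifs elsewhere in the gene. *Lef1* windows 2 and 3, which are not shown, and the windows of *Sfrp2*, *Frzb* and *Wif1* held no match either. The window of *Dkk1*, whose level was not measured, held CTTTGAA with its first base at -117 and CTTTGT with its first base at -98.

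*Rspo3* encodes an R-spondin that amplifies Wnt signaling at the receptor (gene ID 72780). Its log2 value in E10.5 FBs was 7.40, 7.59 and 7.65 before culture, 7.29, 7.68 and 7.57 after 1 h, 7.54, 7.65 and 7.93 after 3 h, and 6.87, 7.20 and 7.29 after 6 h. In E12.5 FBs it was 8.49, 8.79 and 8.68 before culture, 8.31, 8.41 and 8.36 after 1 h, and 8.37, 7.95 and 8.08 after 3 h. All E12.5 arrays lay above all E10.5 arrays, and in E12.5 culture both cultured groups lay below the fresh arrays. *Rspo3* was higher at E12.5 by 1.10 ± 0.14 in fresh FBs (adjusted p = 2.03e-05), by 0.85 at 1 h (adjusted p = 0.000451) and by 0.43 at 3 h (adjusted p = 0.0344).

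In culture *Rspo3* fell by 0.52 ± 0.14 at 3 h of E12.5 culture (adjusted p = 0.0122), after -0.29 at 1 h (adjusted p = 0.397). At E10.5 it fell by 0.59 between 3 and 6 h (adjusted p = 0.0409), and the change from 0 to 6 h was -0.43 (adjusted p = 0.0853), called with array weights (-0.45, adjusted p = 0.0264). The E12.5 call was lost under each of the 3 other scalings (-0.48 to -0.45, adjusted p of 0.0525 to 0.0681) and without E12.5 0 h replicate 2 (-0.45, adjusted p = 0.0595) or E12.5 3 h replicate 2 (-0.43, adjusted p = 0.0676). The call from 3 to 6 h was lost under the same scalings (-0.55 to -0.52, adjusted p of 0.0846 to 0.145) and without any of E10.5 3 h replicates 2 and 3 and E10.5 6 h replicates 1 and 2 (-0.63 to -0.46, adjusted p of 0.0544 to 0.131). This call was also lost with the placenta and decidua mean as a covariate (-0.77, adjusted p = 0.0737). The stage call at 3 h was lost in 4 of 6 fits without 1 array (0.31 to 0.45, adjusted p of 0.0583 to 0.166 without E10.5 3 h replicate 1 or 2 or E12.5 3 h replicate 1 or 3). It was also lost under each of the 3 other scalings (0.21 to 0.275, adjusted p of 0.258 to 0.406). Of 15 alternatives other than leaving out 1 array, 9 ended this call.

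E12.5 FBs were compared with E10.5 FBs at equal times in culture, to ask how the 9 genes differed between early and later limb buds. Of the 9 genes 6 were called at 0 h, 5 higher and 1 lower at E12.5, against 27.1% of all genes, 19.7% higher and 7.39% lower. At 1 h of culture 6 were called, 4 higher and 2 lower, against 18.1% of all genes, 13.8% higher and 4.35% lower. At 3 h 8 were called, 7 higher and 1 lower, against 28.7% of all genes, 17.7% higher and 11% lower. Arrays did not overlap for 7, 6 and 7 of the 9 genes, beside 47.3%, 41.5% and 43.3% of all genes. The median stage difference of the 9 genes was 0.82, 0.39 and 0.57, beside 0.03 to 0.05 over all genes. Moving every array to a common median shifted the median difference of all genes by -0.25, -0.17 and -0.22, so that stage differences of that size depend on the scaling. Among all genes called at 0 h, 72.7% were higher at E12.5 as deposited and 29.1% with a common array median. At 1 h these shares were 76% and 41.6%, and at 3 h 61.7% and 31.3%. None of the 9 genes changed the direction of a called difference under any of these scalings.

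**Figure D2:**
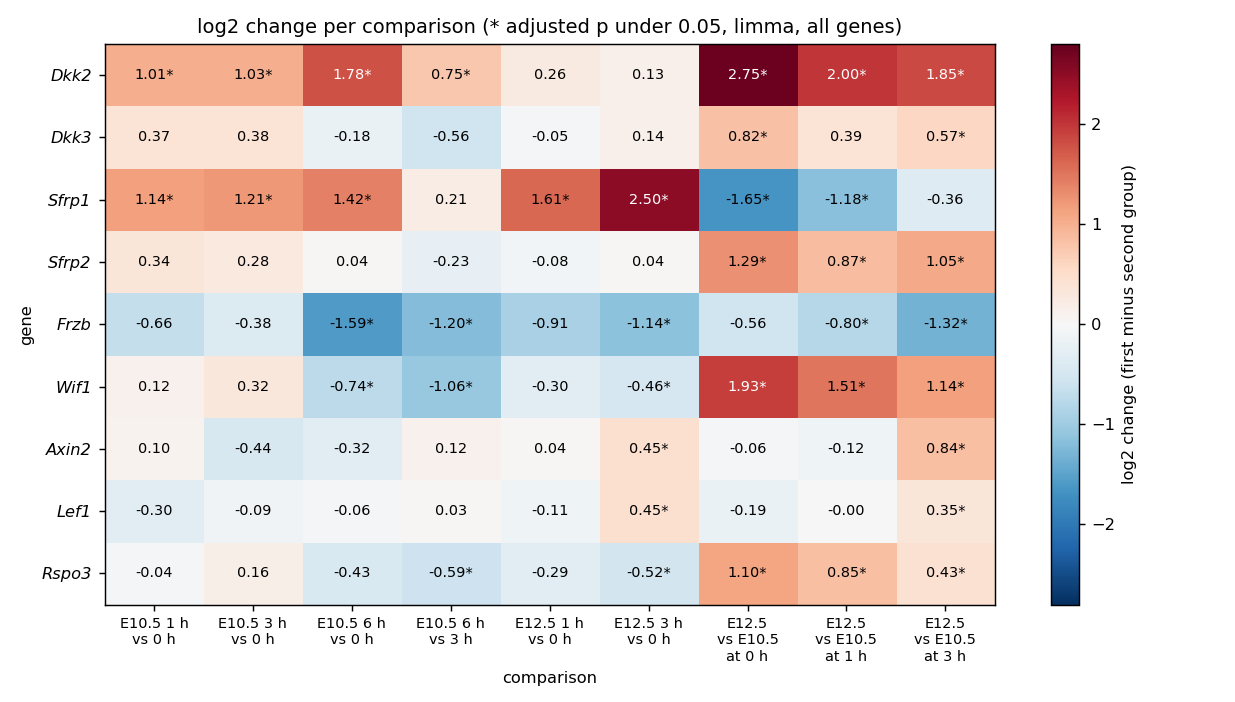
Log2 change of the 9 measured genes (rows) in 9 comparisons (columns), with the first group minus the second in color (red higher, blue lower) and in figures, and an asterisk for an adjusted p under 0.05 in limma over all genes. *Dkk2* stood at 2.75 and *Sfrp1* at -1.65 in the stage comparison at 0 h, and *Sfrp1* reached 2.50 at 3 h of E12.5 culture.

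Whether culture acted differently on the 2 stages was tested as the difference between the E10.5 and the E12.5 change. At 1 h, 0 of the 9 genes were called, where 0.538% of all genes were called, 0.39% with the higher change at E10.5 and 0.148% with the lower. Among the 9, *Dkk2* and *Sfrp2* had an unadjusted p under 0.05 in limma (2 genes), and *Dkk2* was called with array weights (0.77, adjusted p = 0.00817) and with only the 4 groups of the comparison in the fit (0.75, adjusted p = 0.034). After 3 h, 6 of the 9 were called, 3 in each direction, against 14.3% of all genes, 9.43% with the higher change at E10.5 and 4.83% with the lower. Among all genes called at 3 h, 66.1% had the higher change at E10.5 as deposited and 45.2% with a common array median.

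The response at 3 h was higher at E10.5 for *Dkk2*, *Wif1* and *Rspo3* and lower for *Sfrp1*, *Axin2* and *Lef1*. The difference was 0.90 ± 0.22 for *Dkk2* (adjusted p = 0.0155), made of 1.03 at E10.5 and 0.13 at E12.5. It was -0.90 ± 0.22 for *Axin2* (adjusted p = 0.0134), with changes of -0.44 and 0.45 at the 2 stages, and it held under every alternative tried. For *Sfrp1*, which was called higher at both stages, it was -1.29 ± 0.34 (adjusted p = 0.021). Differences of 0.79 for *Wif1* (adjusted p = 0.0357), 0.68 for *Rspo3* (adjusted p = 0.0362) and -0.54 for *Lef1* (adjusted p = 0.0422) were closer to the threshold.

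Leaving out 1 array in turn ended the call of *Wif1* in 10 of 12 fits, that of *Lef1* in 9 and that of *Rspo3* in 7, with adjusted p up to 0.0888, 0.0937 and 0.0963. The *Sfrp1* call was lost without E10.5 0 h replicate 2 (-1.19, adjusted p = 0.0571) or E12.5 0 h replicate 2 (-1.13, adjusted p = 0.0601), and that of *Dkk2* with the placenta and decidua mean as a covariate (0.85, adjusted p = 0.0712). For *Dkk3*, *Sfrp2* and *Frzb* the differences of 0.24, 0.23 and 0.76 did not pass (adjusted p of 0.614, 0.45 and 0.156), and the 95% interval for *Frzb* ran from 0.02 to 1.502.

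**Figure D3:**
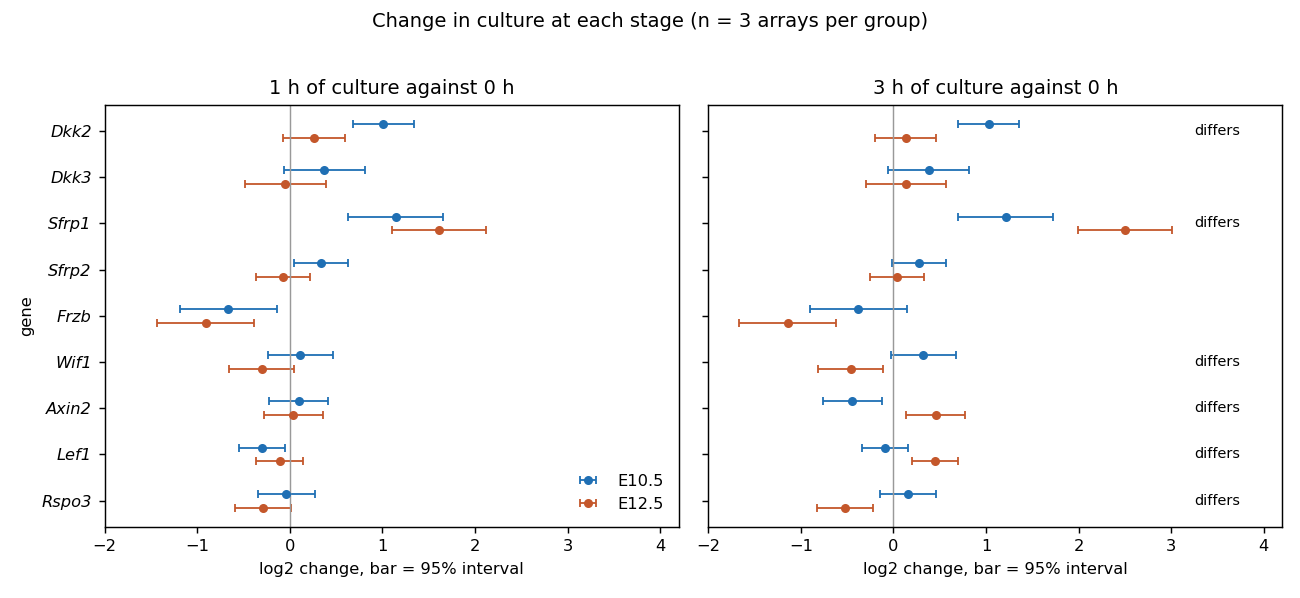
Log2 change in culture against 0 h of the same stage (horizontal axis) for the 9 measured genes (vertical axis), after 1 h on the left and 3 h on the right, with E10.5 in blue and E12.5 in orange and bars for the 95% interval (n = 3 arrays per group). The word "differs" marks the 6 genes whose changes differed between the stages at an adjusted p under 0.05. At 3 h *Axin2* stood at -0.44 in E10.5 and 0.45 in E12.5.

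Other genes of the pathway were counted from lists written from general knowledge, but with earlier results of these data known. Their counts stand beside 3.89% of all genes higher and 2.87% lower at 6 h of E10.5 culture, and 9.94% higher and 17.6% lower at 3 h of E12.5 culture. Among 18 Wnt ligands, 2 rose and 2 fell at 6 h of E10.5 culture. *Wnt2* rose by 2.86, 3.35 and 4.61 at 1, 3 and 6 h (adjusted p = 1.03e-06 at 6 h) and *Wnt2b* by 1.40 at 6 h, while *Wnt7a*, the dorsal ectoderm ligand, fell by 1.35 and *Wnt5a*, a distal mesenchyme ligand, by 0.78. Of the ligands 2 are in the study's own lists. Among 16 measured receptors and co-receptors, 3 rose and 2 fell at 6 h, with *Fzd4* up by 1.31 and *Fzd10* down by 1.22 on the log2 scale (adjusted p of 1.63e-05 and 0.00207). At 3 h of E12.5 culture 7 of these 16 rose and 0 fell, among them *Fzd7* (0.98) and *Rnf43* (0.96), a membrane ubiquitin ligase that removes Wnt receptors. Of the 18 ligands 3 rose and 0 fell at that time, a smaller share called than the 27.5% of all genes. The medians of the ligands and receptors were 0.30 and 0.37, beside 0.01 over all genes.

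Other antagonists and R-spondins (16 genes) fell or did not pass in E10.5 culture, with 4 lower and 0 higher at 6 h. *Sost*, a ligand of the Lrp5 and Lrp6 co-receptors, fell by 1.23 and *Kremen2*, a receptor for Dickkopf proteins, by 0.94. At 3 h of E12.5 culture the count was 4 higher and 0 lower, with *Rspo1* up by 2.14 and *Kremen2* by 1.06 (adjusted p of 1.07e-05 and 0.00191). In fresh FBs 9 of these 16 were lower and 1 was higher at E12.5, beside 7.39% of all genes lower and 19.7% higher. *Sostdc1* was higher by 2.08, and *Rspo4* was lower (-2.97, adjusted p = 2.81e-05). *Sfrp4* was lower as well (-3.28, adjusted p = 0.00267), in a comparison in which 6 of 10 placenta and decidua markers were also lower. The intracellular components (14 measured) gave 0 calls at 6 h of E10.5 culture and 3 higher and 3 lower at 3 h of E12.5 culture, with *Dvl3* at 0.88 and *Ctnnbip1*, an inhibitor of beta-catenin, at -0.37. Beside these calls stand 6.76% of all genes called at 6 h of E10.5 culture, and 9.94% higher and 17.6% lower at 3 h of E12.5 culture.

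Further target genes and Tcf factors (16 measured) were set beside *Axin2* and *Lef1*. At 3 h of E12.5 culture 5 rose and 3 fell, with a median change of 0.19. *Nkd1*, a feedback inhibitor acting on Dishevelled, rose by 1.18 (adjusted p = 1.08e-05) and *Dact1* by 0.83, whereas *Bambi* fell by 0.60 and *Msx2* by 0.51. At 6 h of E10.5 culture 3 rose and 3 fell, among them *Myc* (0.85), *Nkd2* (-1.16) and *Msx1* (-1.36). The difference between the stages at 3 h was negative for *Nkd1* (-0.76, adjusted p = 0.0108) and *Tcf7l1* (-0.82, adjusted p = 0.00814), as for *Axin2* and *Lef1*, and positive for *Bambi* (1.12, adjusted p = 0.00494) and *Msx2* (0.76, adjusted p = 0.0289). At 0 h, *Tcf7l2* was higher at E12.5 by 1.13 (adjusted p = 2.35e-05).

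The genes whose 7 group means ran closest to those of each member were found by the root mean square difference after centering, for the 7 members whose means spanned at least 1. For *Dkk2* they were *Col14a1* (0.23) and *Prss35* (0.23), where the median over all genes was 1.07. For *Sfrp1* they were the Hox genes *Hoxb2* (0.22) and *Hoxb3* (0.28), beside a median of 1.04. The closest to *Wif1* were *Olfml1* (0.17) and *Dlx5* (0.17), beside 0.92, and the closest to *Frzb* were *Ttpa* (0.22) and *Gpx6* (0.26), beside 0.65. *Sfrp2* ran closest to *Boc* (0.07) and *Syt16* (0.09), *Dkk3* to *Car11* (0.05) and *Sh3rf2* (0.06), and *Rspo3* to *Pfn4* (0.08) and *Aamdc* (0.08). Among pairs of the 9 genes the smallest differences were those of *Dkk3* and *Sfrp2* (0.22), *Sfrp2* and *Rspo3* (0.23) and *Dkk3* and *Rspo3* (0.23), followed by *Axin2* and *Lef1* (0.25). These are descriptions over 7 groups, and small differences also come with small spans.

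**Figure D4:**
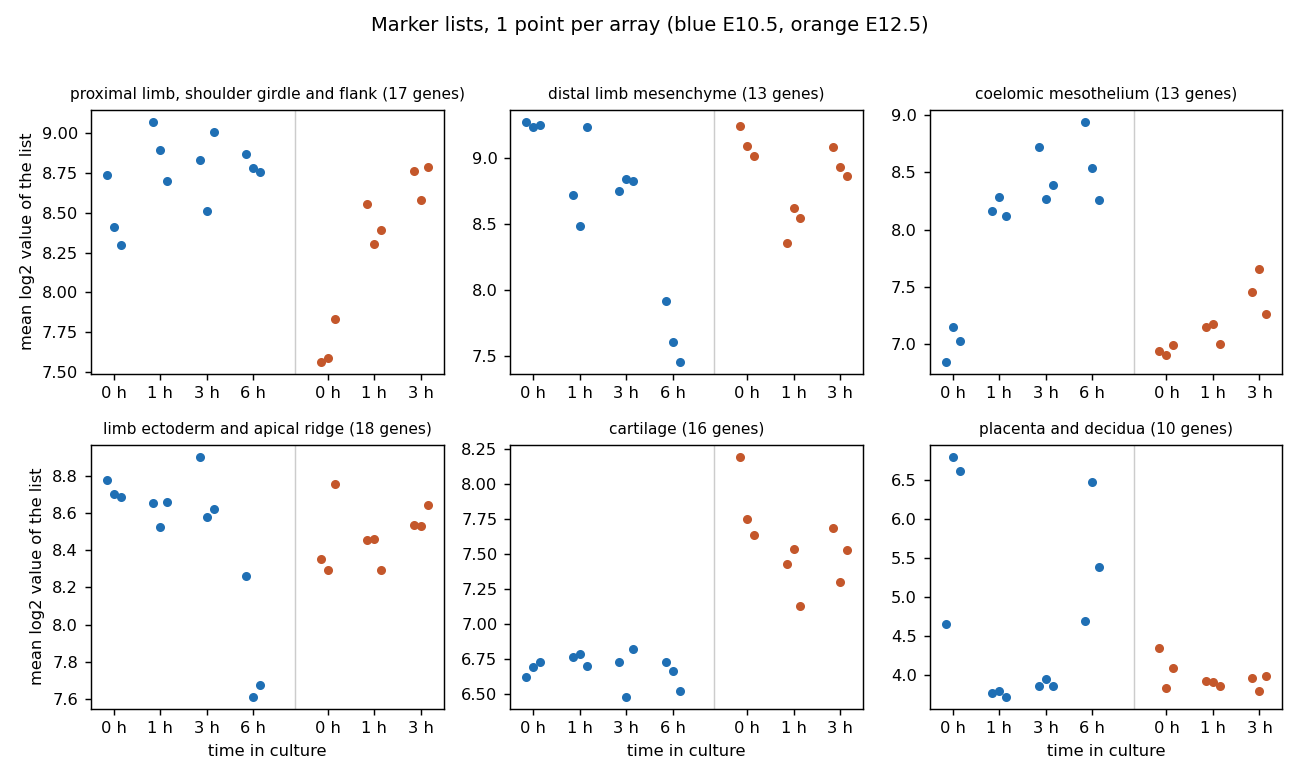
Mean log2 value of 6 marker lists (vertical axis) on each array against hours in culture (horizontal axis), 1 point per array, with E10.5 in blue and E12.5 in orange. The proximal list lay at 7.57 to 7.83 at 0 h and 8.58 to 8.79 at 3 h of E12.5 culture, the distal list at 7.45 to 7.91 at 6 h of E10.5 culture, and the placenta and decidua list at 4.66 or above only in E10.5 arrays at 0 and 6 h.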

How the data were processed

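Total RNA of FBs had been labeled with biotin and hybridized to Affymetrix Mouse Exon 1.0 ST arrays. The authors extracted the probe signals with RMA in the Affymetrix Expression Console and deposited 1 log2 value per transcript cluster and array. RMA corrects for background, normalizes across arrays and summarizes probes, which can compress large differences. The software version, the annotation and the genome build are not given in the sources used here. Of 23332 transcript clusters 14996 carried 1 gene, 1019 several and 7317 none, by the platform annotation. Only clusters of 1 gene entered the main tests, and for 135 genes with several the one of highest mean was taken, which left 14860 genes on 21 arrays with 0 missing values.

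Group means were fitted with limma (version 3.58.1, R version 4.3.3) over all arrays, with 14 residual and 3.09 prior degrees of freedom, and p-values were adjusted by Benjamini-Hochberg over all genes. Errors beside changes are SE from this fit. With 3 arrays in each of 2 groups, the smallest p of an exact permutation test is 0.1. The labels call the arrays of a group biological replicates. The p-values rest on the spread between arrays within groups, estimated for each gene in common over all 7 groups, and the number of arrays limits the precision. Root mean square deviations from the group means were 0.186 to 0.347 in E10.5 arrays and 0.136 to 0.179 in E12.5 arrays. The shared estimate of the main fit does not allow for this difference. The 9 measured genes are named in every comparison. Of each pathway list, the called genes furthest up (2) and furthest down (2) could be named for a comparison, and for likeness the 2 genes of smallest root mean square difference. The members and lists were chosen with earlier results of these data known.

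The alternatives concerned the values (array medians made equal, or quantile or cyclic loess normalization on top of the deposited log2 values), the genes (all features, without the 30% of lowest mean, or with several clusters of 1 gene averaged), the fit (weights for arrays, trended and robust moderation, a block for the replicate number, the placenta and decidua mean as a covariate, or no arrays beyond those of the compared groups) and the call (a required fold of 1.5, the unadjusted p of 0.01 that the study used without naming an array test, or the methods' t-test). The methods name a Mann-Whitney unpaired t-test without assigning it to the arrays. Here it was run per gene as an unpaired two-tailed t-test of equal variance, because a Mann-Whitney rank test of groups of this size cannot give a p under 0.1. Each array was also left out in turn. Leaving out the 2 arrays of lowest median was added after seeing the data. The procedure was tested on simulated data. Replicate numbers were checked as pairs by correlating deviations from the group means. For 63 pairs of arrays with the same number r ran from -0.20 to 0.33 (median 0.01), and 12 were above 0.1. For 126 pairs with different numbers r ran from -0.38 to 0.29 (median -0.01), and 13 were above 0.1. These values do not settle whether the numbers pair some of the arrays. Promoter sequences are those of RefSeq, assembly GRCm38.p6.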

Additional observations from a re-analysis of the deposited data

Results flagged for a closer look

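For 6 of the 9 genes the change at 3 h of culture differed between E10.5 and E12.5 FBs by the test of the difference itself, which was limma's contrast of the 2 changes with adjustment over all genes. The difference, E10.5 minus E12.5, was 0.90 for *Dkk2*, 0.79 for *Wif1* and 0.68 for *Rspo3*. It was -1.29 for *Sfrp1*, -0.90 for *Axin2* and -0.54 for *Lef1*. The 2 changes had opposite signs for *Axin2*, *Wif1*, *Rspo3* and *Lef1*, but for none of these was the E10.5 change itself called. In that order its adjusted p in limma was 0.108, 0.291, 0.586 and 0.706, and for *Lef1* the sign turned when 1 array was left out (up to 0.04). For *Axin2* the arrays at 3 h lay below all fresh controls at E10.5 and above all of them at E12.5.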

How the results depend on the processing

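Of 2169 changes of single genes set beside an alternative, 1974 kept their side of the threshold, 167 were no longer called and 28 were newly called. Of the changes called in either fit, 0 reversed their direction. Changes called in neither fit were counted as kept whatever their sign, and some of these changed sign. The number of the 9 genes called moved by over 1.5 times as follows, with the number of all genes called in parentheses. With a common array median it was 3 (1626) for the difference between the stages at 3 h. With all features it was 5 (4530 features) for the stages at 3 h and 3 (1787 features) for that difference. At 1 h of E12.5 culture it was 2 with quantile normalization (519), with trend and robust moderation (387) and with array weights (1479). Array weights also gave 1 (1074) for the difference between the stages at 1 h. With only the groups of a comparison it was 1 (124), 0 (82) and 2 (343) at 1, 3 and 6 h of E10.5 culture, and 0 (1) from 3 to 6 h. In the same setting it was 2 (621) at 1 h of E12.5 culture and 5 (2774) for the stages at 3 h. For the difference between the stages it was 1 (143) at 1 h and 3 (1837) at 3 h. At an unadjusted p under 0.01 it was 2 (863) at 1 h of E12.5 culture and 1 (568) for the difference at 1 h. With a fold of at least 1.5 it was 2 (1840) at 3 h of E12.5 culture and 5 (2249) for the stages at 3 h. The methods' t-test after adjustment gave 0 (0), 0 (0) and 1 (71) at 1, 3 and 6 h of E10.5 culture, and 0 (0) from 3 to 6 h. This test gave 0 (1) at 1 h of E12.5 culture and 3 (1433) for the stages at 3 h. At an unadjusted p under 0.01 it gave 1 (628), 0 (550) and 2 (701) in E10.5 culture. With the placenta and decidua covariate the number was 0 (98) and 0 (205) at 1 and 3 h of E10.5 culture and 1 (119) from 3 to 6 h. Without the 2 arrays of lowest median, chosen after seeing the data, it was 2 (205) from 3 to 6 h, 2 (566) at 1 h of E12.5 culture, 5 (3766) for the stages at 3 h and 1 (196) for the difference at 1 h. Leaving out each array in turn gave 1 to 2 at 1 h and at 3 h and 3 to 5 at 6 h of E10.5 culture, 2 to 4 from 3 to 6 h, 3 to 5 at 3 h of E12.5 culture, 5 to 6 for the stages at 1 h, 5 to 8 at 3 h, and 2 to 6 for the difference at 3 h. The cause of these moves was not tested. The replicate block changed 1 call, that of *Wif1* at 3 h of E12.5 culture (-0.46, adjusted p = 0.0528), and no other. With 3 arrays per group and no detection values used, low signals could not be told from background here.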

Other observations

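Marker lists of muscle and of nerve sheath cells differed between the stages. Skeletal muscle markers (14 measured) averaged 6.13 to 6.97 in fresh E10.5 FBs and 8.62 to 9.49 in fresh E12.5 FBs, and 7.64 to 8.42 after 1 h of E10.5 culture. Markers of neural crest and Schwann cells (8 measured) averaged 6.20 to 6.41 in fresh E10.5 and 7.44 to 7.77 in fresh E12.5 FBs, with 8.21 in 1 array of E10.5 at 1 h.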
